A study of Mus musculus with 11 samples.

Results

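Potassium channel genes are described here in mouse hippocampal tissue taken after chemotherapy. They are the 76 of 17118 genes in the expression table whose symbol starts with Kcn followed by a letter and whose mean estimated read count over the 11 libraries was at least 10. Every gene with such a symbol met that minimum, and the lowest mean was 21.9 counts, for Kcnd3os. A low-expression filter left 75 of the 76 for testing, and the gene it took out was Kcnmb1.

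The AC-T group comprised 5 female C57/BL6J mice that received doxorubicin (2 mg/kg) together with cyclophosphamide (50 mg/kg) in 4 weekly intraperitoneal injections, followed by 4 weekly injections of paclitaxel (5 mg/kg). The saline group comprised 6 female C57/BL6J mice that received 8 weekly injections of 0.9% saline. The age of the mice is given as 12 weeks, and whether at the first injection or at tissue collection is not stated here. The samples carry a label of 1 month. Tissue came from a 0.2 mm punch of frozen coronal slices, so that a library holds whatever lay under the punch. AC-T is a breast cancer regimen, here given to mice for which the labels name no tumour.

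Potassium channels let potassium leave or enter a cell and so set its resting potential, the shape of its action potentials and how often it fires. In the hippocampus, voltage-gated (Kv) channels repolarise axons and dendrites, KCNQ channels carry the M current that holds back repetitive firing, and calcium-activated channels give the pause after a spike. Inward rectifiers (Kir) and tandem pore channels hold the resting potential, and in astrocytes Kir channels clear the potassium that active neurons release. Many members of the group form no pore: beta, KChIP, KCNE, BK beta and silent Kv subunits change how the pore-forming subunits behave.

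Library totals were 28.3 to 31.7 M counts (M, mega) after AC-T and 23.4 to 32.1 M after saline. Mouse numbers begin with 5 or 6 in the AC-T group and with 2 or 3 in the saline group. What that digit stands for is not given in the labels, and no series of numbers holds both treatments, so that series and treatment cannot be told apart. The library labelled saline 300 had Xist, the RNA that coats the silenced X chromosome of female cells, listed at 0, against 13057 to 22963 counts in the 10 other libraries, although it is labelled female. Markers of thalamus and habenula, which lie under the hippocampus, differed between the groups. Of 20 such markers tested, 17 were lower after AC-T and 0 higher, with a median log2 fold change of -1.08, and their summed level ran from 745 to 1091 CPM (counts scaled to a common library size) after AC-T and from 1429 to 2197 CPM after saline. Gbx2 was the only one of them listed at 0 in any library. Summed CA1 markers ran from 704 to 861 CPM after AC-T and from 297 to 648 CPM after saline, and those of the dentate gyrus from 373 to 598 CPM after AC-T and from 515 to 654 CPM after saline. The hippocampal markers were thus present in all libraries, a few of them at a listed 0 in some. Of 11 neocortical markers 5 were higher after AC-T and 1 lower, with sums of 478 to 503 CPM after AC-T and 341 to 432 CPM after saline. Of 13 interneuron markers 4 were higher and 1 lower, with sums of 903 to 1088 CPM after AC-T and 802 to 1060 CPM after saline. Of all 15353 genes tested, 4.89% were higher and 3.58% lower after AC-T at the same threshold. The marker lists, the thalamic one included, were chosen with earlier results of these data known. Their counts are thus not independent of these data and were not tested against all genes. The part of the CA1, neocortical and interneuron markers in the results below was not tested. In bulk tissue of this kind, fewer cells of a type and less RNA per cell cannot be told apart.

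After AC-T, 14 of the 75 genes tested (18.7%) passed an adjusted p of 0.05 in edgeR's quasi-likelihood test, against 8.47% of all 15353 genes. Of these, 7 rose (9.33%, against 4.89% of all genes) and 7 fell (9.33%, against 3.58%). The genes that rose were Kcnh7, Kcnv1, Kcnq5, Kcnf1, Kcnab1, Kcnj4 and Kcnk2, and those that fell included Kcng4, Kcnj12, Kcnj10, Kcnh2, Kcne1l and Kcnn3. Fitted changes of these 14 ran from 0.474-fold to 1.68-fold. Of the members that did not pass, those above 0 in every library ran from -0.48 (Kcnd3os) to 0.39 (Kcnh3) on the log2 scale. The split of all genes, 751 higher and 550 lower, was 593 and 663 with upper-quartile factors and 487 and 548 with library totals, while that of the members was 7 and 7 and then 7 and 6. At an unadjusted p of 0.05, 29 members passed (38.7%), against 24.9% of all genes. The AC-T and saline libraries did not overlap for 9 members (12%), 8 of them among the 14, against 7.52% of all genes. The median log2 fold change was 0.05 over the members and -0.003 over all genes, and the median size without sign was 0.22 and 0.11. Members above 0 numbered 43 of 75 (57.3%), against 49.4% of all genes. The share of a library's counts that fell in the 76 genes was 0.452% to 0.514% after AC-T and 0.473% to 0.498% after saline.

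**Figure D1:**
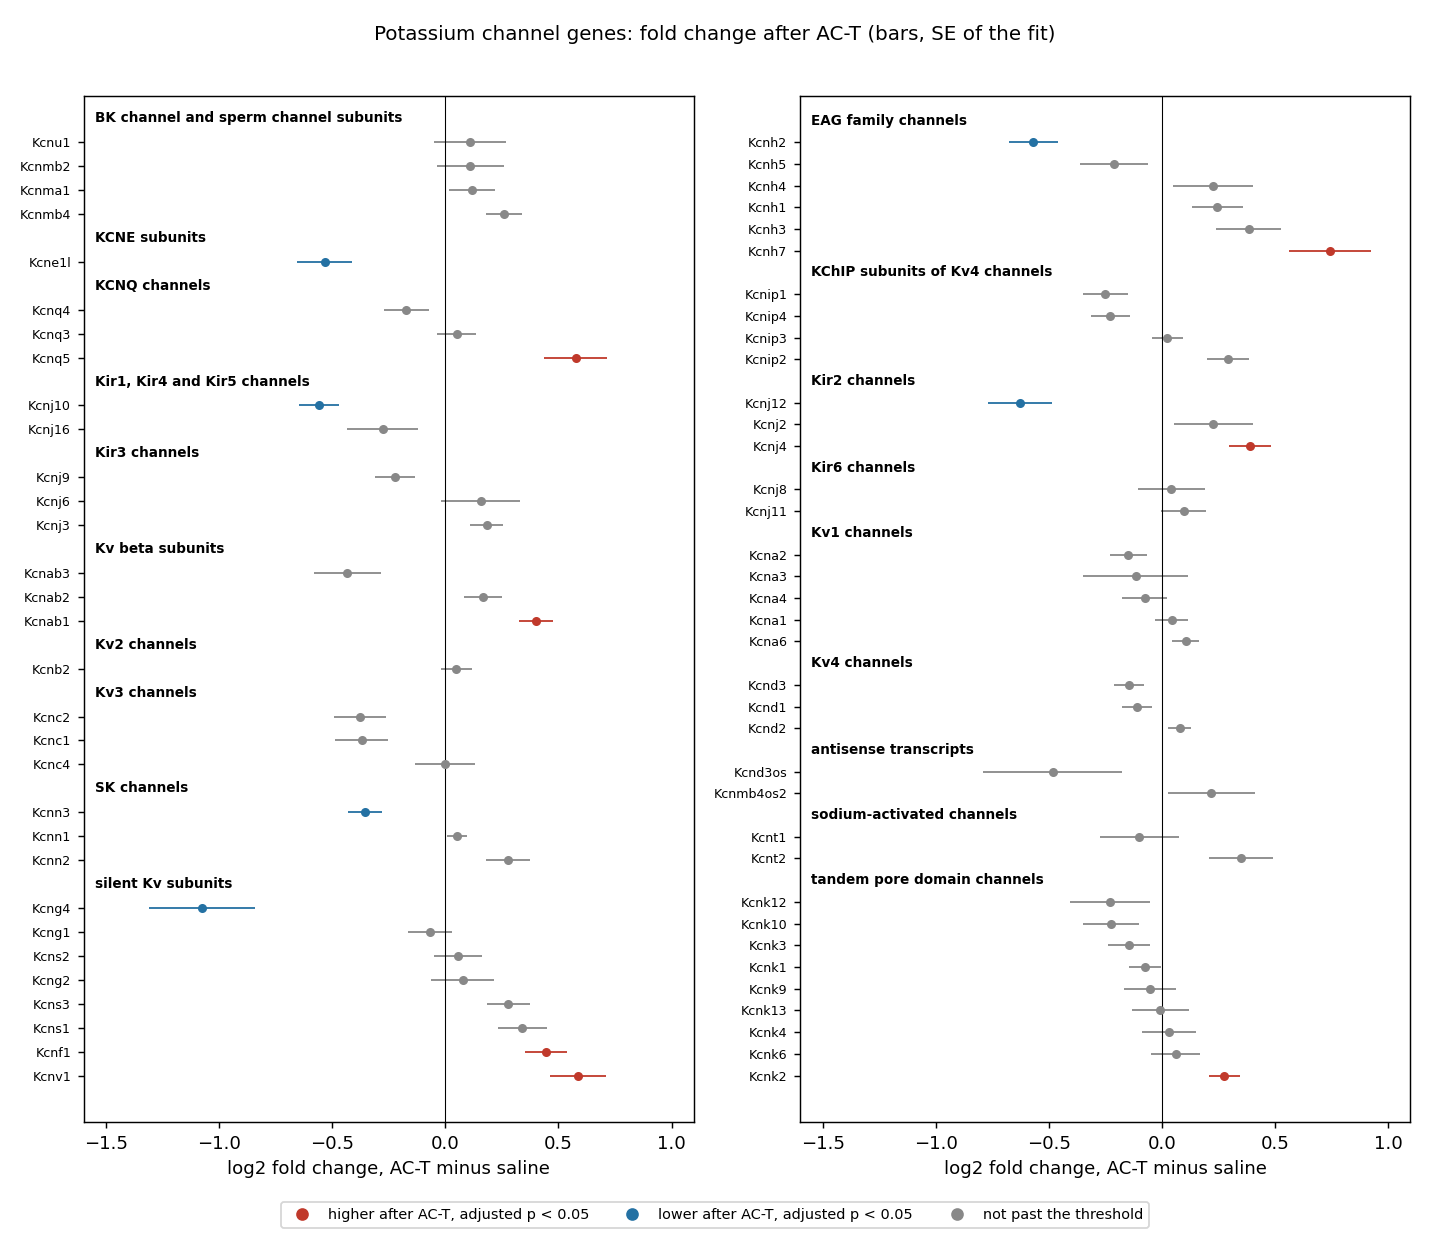
Log2 fold change (AC-T minus saline, horizontal axis) of the tested potassium channel genes by subfamily, with the SE of the fit as bars. Genes that passed the test are coloured, 7 higher and 6 lower, the largest rise being Kcnh7 and the largest fall Kcng4; the 5 tested genes with a listed 0 and wide errors, and 3 others, are left out.

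These counts depended on single libraries. Without AC-T 502, 7 of the 14 calls were left, 3 higher and 4 lower, while 625 genes of all passed. The number of members higher was 4 without AC-T 602, saline 202 or saline 300. Without saline 300, 14 members passed, 4 higher and 10 lower, and 11 of them were among the original 14. Kcnh2, Kcnj10, Kcnab1, Kcnf1, Kcng4, Kcnv1 and Kcnn3 passed on omission of every single library. On omission of a whole series, Kcnj10 alone of these 7 passed each time. Kcnh2 lost the call without series 5 (adjusted p = 0.152) or 2 (0.0728), and Kcnab1 without series 6 (0.0673) or 2 (0.0851). Kcnf1 lost it without series 5 (0.168), 6 (0.0662) or 3 (0.0547), and Kcnn3 without series 5 (0.0809), 6 (0.0866) or 3 (0.0755). Kcng4 lost it without series 5 (0.168), 6 (0.0601) or 2 (0.0707), and Kcnv1 without series 5 (0.122), 6 (0.0733) or 2 (0.0668). Calls were also gained: without saline series 3, 22 members passed, 10 of them among the original 14. Those gained included Kcnh3 (edgeR adjusted p = 0.00262), Kcnn2 (0.00965), Kcnj9 (0.0101), Kcnab2 (0.0196), Kcnt2 (0.0198) and Kcnmb4 (0.0284). With series as a random effect the calls fell from 14 to 3, by limma-voom with a within-series correlation of 0.215. They were Kcnh2 (adjusted p = 0.0467), Kcnj10 (0.0284) and Kcnab1 (0.0427). With the mean log2 level of the thalamic markers as a covariate no member passed, and neither did any gene but 1 of 15756 tested. At an unadjusted p of 0.05 that fit called 1 member and 928 genes. That score was 4.11 to 4.84 in the AC-T libraries and 5.18 to 5.99 in the saline libraries, without overlap. This fit thus compares treatments with no shared range of the covariate, and the treatment and the thalamic markers cannot be told apart.

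Expressed per kilobase of the longest annotated transcript, the highest level belonged to Kcnab2 (Kv beta 2), with a mean of 163 CPM per kb after AC-T and 145 CPM per kb after saline. Kcnj10 came next over all libraries, with 50.7 CPM per kb after AC-T and 74.7 after saline. Kcna1, an axonal Kv1 subunit, had 53.8 CPM per kb after AC-T and 52.3 after saline. With the median transcript length in place of the longest, the level over all libraries was 998 CPM per kb for Kcnab2 and 154 CPM per kb for Kcnip2. Kcnab2 was thus first by either length, while the size depended on the transcript taken. At the other end were Kcnmb1 at 0.22, Kcnk9 at 0.43 and Kcnk10 at 0.49 CPM per kb of the longest transcript over all libraries.

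The EAG family has 6 members here, 1 of which rose and 1 of which fell, and both belong to its ERG branch, whose channels recover from inactivation to give a late repolarising current. Their selectivity filters, the stretch of the pore that lets potassium pass and sodium not, are shown because the pair moved in opposite directions while being close relatives. Capitals mark the 15 coding bases of the filter signature, read from GENCODE M21 transcripts (GRCm38).
Kcnh2: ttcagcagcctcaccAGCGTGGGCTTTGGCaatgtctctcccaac
Kcnh7: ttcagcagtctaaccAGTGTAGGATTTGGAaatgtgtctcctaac
Over these 45 bases the pair shares 37, and 11 of the 15 in capitals.

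Kcnh2, which encodes ERG1, measured 27.5, 27.4, 26.9, 35.3 and 35.0 CPM in the AC-T libraries (mice 501, 502, 503, 600 and 602, in this order here and below), against 38.1, 44.4 and 53.0 CPM (lowest, median and highest) in the saline libraries. All AC-T libraries lay below all saline libraries, and the 600s lay nearest to them. The log2 fold change was -0.57 ± 0.11 (SE; edgeR, adjusted p = 0.0118), or 0.675-fold. Kcnh7, which encodes ERG3, measured 55.9, 47.5, 40.05, 43.4 and 49.9 CPM after AC-T, against 15.98, 31.0 and 36.6 CPM after saline. The groups did not overlap, and within the saline group the mice of series 2 were lower than those of series 3. Its log2 fold change of 0.75 ± 0.18 (1.68-fold, adjusted p = 0.0294 by edgeR) was the largest rise among the 14. That call was lost without AC-T 501 (adjusted p = 0.0611), AC-T 502 (0.0688), AC-T 602 (0.0685) or saline 202 (0.0573). Against the saline mice of series 3 alone the log2 fold change was 0.49 ± 0.11. Against those of series 2 alone it was 1.05 ± 0.20, and both were past the threshold. Without AC-T series 5 (edgeR adjusted p = 0.184) or series 6 (0.0963) the call of Kcnh7 was lost. Kcnh3, the most abundant EAG gene in CPM, averaged 82.2 ± 5.91 CPM after AC-T and 62.8 ± 15.3 CPM after saline (SD) and did not pass (adjusted p = 0.119). It did pass without saline series 3 (edgeR adjusted p = 0.00262) and with DESeq2 (0.0408).

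KCNQ channels counted 4 members, 1 of them higher. Kcnq5, a subunit of the M channel, measured 44.6, 73.0, 73.2, 49.7 and 55.8 CPM after AC-T, against 32.1, 39.9 and 47.5 CPM after saline. AC-T 501 lay within the saline range and the spread after AC-T was wide (59.3 ± 13.2 CPM, against 39.8 ± 5.13 CPM after saline; SD). Its log2 fold change was 0.58 ± 0.14 (1.49-fold; edgeR adjusted p = 0.0285). The call was lost without AC-T 502 (adjusted p = 0.0764), AC-T 503 (0.0569), AC-T 602 (0.0540), saline 202 (0.0554), saline 203 (0.0563) or saline 300 (0.0551). Omission of series 5 (edgeR adjusted p = 0.126), 6 (0.0586), 2 (0.0922) or 3 (0.121) also removed it.

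Of 3 KCNE genes, single-span subunits that slow or silence KCNQ and other channels, Kcne1l fell. It measured 6.11, 5.29, 7.28, 5.70 and 4.79 CPM after AC-T, against 6.80, 8.29 and 10.3 CPM after saline. AC-T 503 lay above the lowest saline library, saline 300. The log2 fold change of -0.53 ± 0.12 (0.690-fold, edgeR adjusted p = 0.0221) was no longer past the threshold without AC-T 502 (0.0630) or AC-T 602 (0.0540). Nor did Kcne1l pass without series 5 (edgeR adjusted p = 0.0612), 6 (0.106) or 2 (0.106). Kcne4 was listed at 53, 59, 60, 0 and 0 counts after AC-T and at 51 to 164 counts after saline, and did not pass (adjusted p = 0.303). A listed 0 was read here as a value under a limit.

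None of the 6 Kv1 genes, which form axonal and juxtaparanodal channels, passed. Kcna1 averaged 217 ± 18.1 CPM after AC-T and 211 ± 19.5 CPM after saline, and Kcna2 204 ± 19.4 and 226 ± 24.1 CPM (SD). Kcna5 had the largest positive fitted change of all members, 0.76 ± 0.92, but was listed at 0 in saline 201 and saline 302 and its adjusted p was 0.667. Among the 3 beta subunits, which sit under the Kv1 pore, 1 rose. Kcnab1, whose product can plug the pore and make the current inactivate fast, measured 143, 148, 115, 155 and 147 CPM after AC-T, against 97.8, 106 and 117 CPM after saline. All AC-T libraries but 503, which lay inside the saline range, were above every saline library. Kcnab1 had a log2 fold change of 0.40 ± 0.08 (1.32-fold; edgeR adjusted p = 0.0114). Kcnab2 averaged 638 ± 35.6 CPM after AC-T and 568 ± 74.6 CPM after saline (adjusted p = 0.254), and Kcnab3 38.3 ± 4.08 and 51.8 ± 11.7 CPM (adjusted p = 0.0948).

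Kv3 genes encode channels of high threshold and fast closing that let neurons fire at high rates. Kcnc1 averaged 167 ± 18.6 CPM after AC-T and 216 ± 36.9 CPM after saline (log2 fold change -0.37 ± 0.12, adjusted p = 0.0753), and Kcnc2 averaged 111 ± 8.71 and 144 ± 26.9 CPM (-0.38 ± 0.12, adjusted p = 0.0669). Kcnc4 averaged 65.7 CPM in both groups. None of these 3 passed.

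For the 3 Kv4 genes, which carry the dendritic A current, and the 4 KChIP genes, which bring Kv4 channels to the membrane, no member passed. Kcnd2, the most abundant of the Kv4 genes in CPM, averaged 104 ± 6.86 CPM after AC-T and 98.4 ± 4.42 CPM after saline (adjusted p = 0.364), and Kcnd3 averaged 77.5 ± 8.39 and 85.7 ± 4.47 CPM (adjusted p = 0.210). Kcnip2 averaged 146 ± 10.9 CPM after AC-T and 119 ± 16.5 CPM after saline (log2 fold change 0.29 ± 0.09, adjusted p = 0.0738). Kcnd3os, antisense to Kcnd3, averaged 0.628 CPM after AC-T and 0.879 CPM after saline (adjusted p = 0.371). The strand setting of the quantification is not given in the sources used here, so that an antisense transcript and its partner cannot be fully separated.

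Silent Kv subunits make no channel of their own and alter Kv2 channels with which they assemble. Of their 8 genes, 2 rose and 1 fell, and neither of the Kv2 genes passed. The filters of these 3 are shown since silent subunits keep a potassium filter although they do not conduct by themselves; capitals mark the signature as above.
Kcnf1: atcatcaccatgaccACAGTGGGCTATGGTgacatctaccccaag
Kcnv1: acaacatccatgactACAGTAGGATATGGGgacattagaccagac
Kcng4: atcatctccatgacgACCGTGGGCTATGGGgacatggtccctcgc
Kcnf1 and Kcng4, which moved in opposite directions, share 34 of the 45 bases and 13 of the 15 in capitals.

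Kcnf1 measured 78.2, 80.9, 82.8, 76.7 and 80.2 CPM after AC-T, against 47.0, 56.7 and 73.4 CPM after saline. The AC-T libraries lay close together and above all saline libraries. Its log2 fold change was 0.45 ± 0.09 (1.36-fold, edgeR adjusted p = 0.0160). Kcnv1 measured 35.5, 43.0, 42.1, 43.6 and 38.4 CPM after AC-T, against 18.2, 28.0 and 32.1 CPM after saline. Again the groups were apart, with saline 300 the lowest library. Kcnv1 had a log2 fold change of 0.59 ± 0.12 (1.502-fold; edgeR adjusted p = 0.0164). Kcng4 measured 10.4, 5.67, 10.3, 10.8 and 12.0 CPM after AC-T, against 14.6, 17.2 and 30.5 CPM after saline. Here AC-T 502 was the lowest library and saline 300 and saline 202 the highest. It had the largest fall among the 14, with a log2 fold change of -1.08 ± 0.23 (0.474-fold; edgeR adjusted p = 0.0191).

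**Figure D2:**
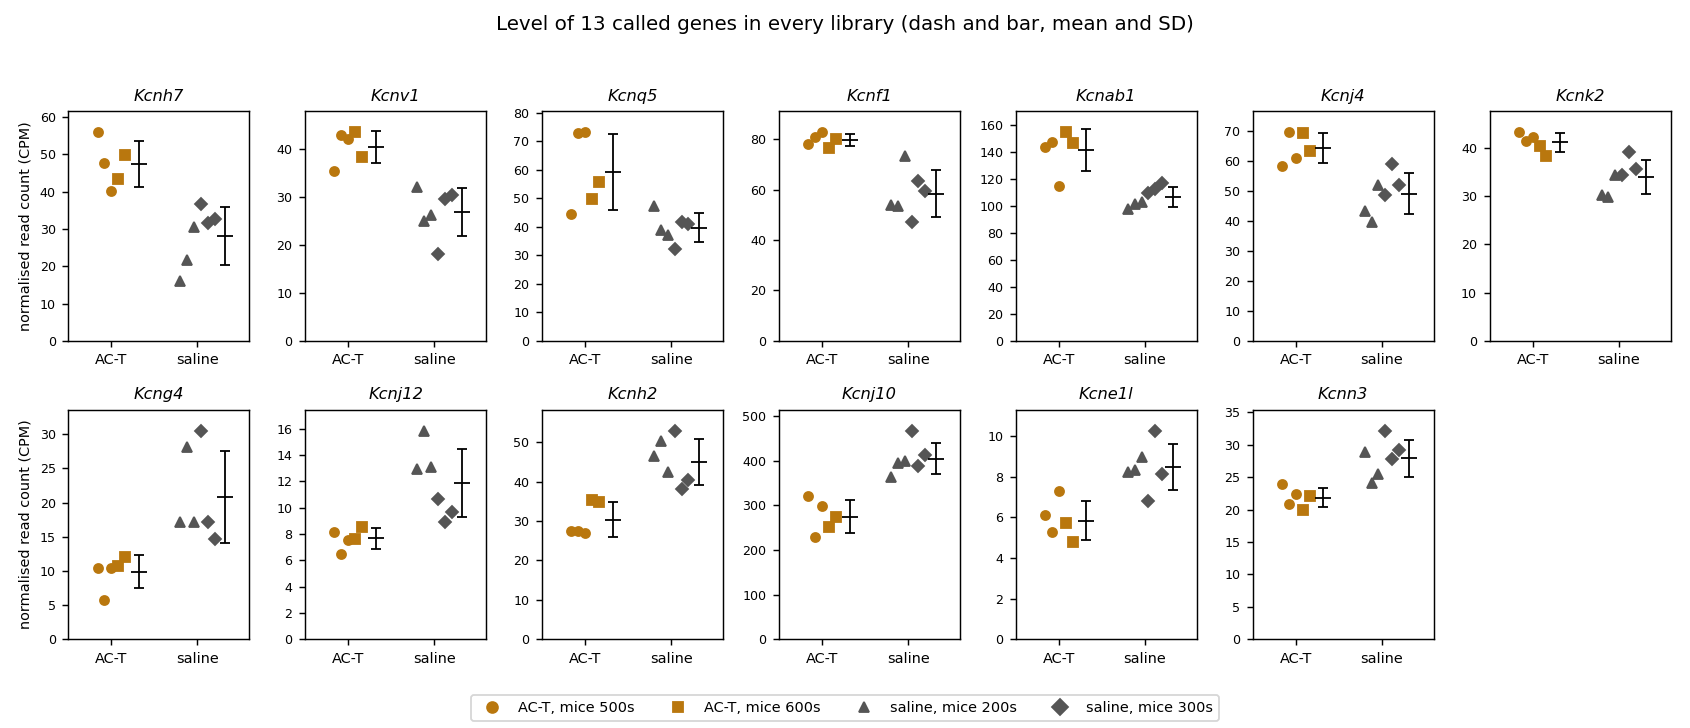
Normalised read count (CPM, vertical axes starting at 0) of 13 genes that passed, in each AC-T library (left) and each saline library (right), with the group mean and SD. Marker shapes give the series of mouse numbers; the groups are fully apart for Kcnh2, Kcnh7, Kcnj10, Kcnj12, Kcnf1, Kcng4, Kcnv1 and Kcnn3 and overlap for the other 5.

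Calcium-activated SK channels, 3 members, gave 1 call. Kcnn3, which encodes SK3, measured 23.98, 20.9, 22.4, 19.96 and 22.02 CPM after AC-T, against 24.1, 28.4 and 32.2 CPM after saline. The groups were apart, but only narrowly: AC-T 501 and saline 202 lay next to each other. The log2 fold change was -0.35 ± 0.07 (0.782-fold; edgeR adjusted p = 0.0164). Kcnn2, which encodes SK2, averaged 42.8 ± 1.96 CPM after AC-T and 35.3 ± 5.45 CPM after saline and did not pass (log2 fold change 0.28 ± 0.10, adjusted p = 0.0971). BK channels, of large conductance, open with calcium and voltage; their genes and the related sperm channel gene Kcnu1, 4 tested in all, gave no call. Their lowest adjusted p was that of Kcnmb4, the neuronal beta subunit, at 46.3 ± 4.24 CPM after AC-T and 38.7 ± 4.03 CPM after saline (0.0688, and 0.0320 without saline 302). Its antisense transcript Kcnmb4os2 averaged 1.72 ± 0.296 and 1.48 ± 0.163 CPM (adjusted p = 0.537). Of the pair of sodium-activated channel genes neither passed, Kcnt1 at 73.3 ± 11.3 CPM after AC-T and 78.5 ± 22.4 CPM after saline, and Kcnt2 at 21.3 ± 1.39 and 16.7 ± 3.70 CPM (adjusted p = 0.144).

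The inward rectifiers gave 3 calls. Kcnj4 rose, and Kcnj10 and Kcnj12 fell.

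Kcnj10 encodes Kir4.1, the astrocyte channel through which potassium is taken up from around active synapses. It measured 321, 230, 297, 251 and 273 CPM after AC-T, against 364, 397 and 467 CPM after saline. All AC-T libraries were below all saline libraries. Its log2 fold change of -0.56 ± 0.09 (0.679-fold) had the smallest adjusted p of the members (0.00550 by edgeR). It passed in each comparison that left out a series, at -0.63 ± 0.09 without AC-T series 5, -0.51 ± 0.11 without series 6, -0.62 ± 0.11 without saline series 2 and -0.50 ± 0.11 without series 3. With the thalamic score as covariate the log2 fold change was -0.43 ± 0.20 (adjusted p = 0.824). Of 12 astrocyte markers, 3 were lower after AC-T (Slc4a4, S100b and Aqp4), against 3.58% of all genes, and 0 higher, with a median of -0.22. Their summed level ran from 5358 to 7417 CPM after AC-T and from 5800 to 7085 CPM after saline, and none was listed at 0; their part in the fall of Kcnj10 was not tested. Kcnj16, which joins Kcnj10 in astrocyte channels, averaged 27.2 ± 6.37 CPM after AC-T and 33.0 ± 6.04 CPM after saline (adjusted p = 0.309).

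Among 4 Kir2 genes, which encode strong rectifiers that hold the resting potential, Kcnj4 rose and Kcnj12 fell. Kcnj4 measured 58.5, 69.6, 61.1, 69.3 and 63.4 CPM after AC-T, against 39.8, 50.3 and 58.9 CPM after saline. The groups touched at AC-T 501 and saline 301. The log2 fold change was 0.39 ± 0.09 (1.31-fold, edgeR adjusted p = 0.0271). Its call was lost without AC-T 502 (0.0736), AC-T 600 (0.0621), AC-T 602 (0.0570) or saline 300 (0.0576). Without series 5 (edgeR adjusted p = 0.132), 6 (0.112) or 2 (0.0930) Kcnj4 did not pass either. Kcnj12 measured 8.17, 6.47, 7.55, 7.61 and 8.54 CPM after AC-T, against 8.95, 11.8 and 15.9 CPM after saline. No AC-T library reached the saline range, whose upper part was series 2 (12.9, 15.9 and 13.1 CPM) and whose lower part was series 3 (10.7, 8.95 and 9.64 CPM). Its log2 fold change was -0.63 ± 0.14 (0.647-fold, edgeR adjusted p = 0.0222). That call was lost without AC-T 502 (adjusted p = 0.0638), and against saline series 3 alone the log2 fold change was -0.35 ± 0.10 (adjusted p = 0.0851). Without AC-T series 5 (edgeR adjusted p = 0.201) or 6 (0.0744) Kcnj12 did not pass either. With the thalamic score as covariate both genes turned their direction, Kcnj4 to -0.07 ± 0.16 and Kcnj12 to 0.11 ± 0.24. Kcnj2 did not pass between treatments but differed between the AC-T series, at 21.3 and 24.6 CPM in mice 600 and 602, against 13.8, 13.5 and 13.4 CPM in mice 501, 502 and 503 (log2 fold change 0.76 ± 0.10, edgeR adjusted p = 0.0291).

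Kir3 channels, opened by G protein beta-gamma subunits, and Kir6 channels, closed by ATP, gave no call among their 3 and 2 genes. Kcnj3 averaged 151 ± 11.3 CPM after AC-T and 133 ± 12.8 CPM after saline (adjusted p = 0.146), and Kcnj9 123 ± 6.96 and 143 ± 19.8 CPM (adjusted p = 0.143). Kcnj11, the neuronal Kir6 gene, averaged 11.8 ± 1.48 CPM after AC-T and 11.02 ± 1.26 CPM after saline (adjusted p = 0.599).

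Of 9 genes for tandem pore channels, which leak potassium at rest, Kcnk2 rose. It encodes TREK1, a channel opened by stretch, warmth and fatty acids. Each subunit carries a pair of filters, and both are shown to display how they differ within a gene; they share 27 of 45 bases and 14 of 15 in capitals.
Kcnk2 first filter: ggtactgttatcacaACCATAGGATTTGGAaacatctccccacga
Kcnk2 next filter: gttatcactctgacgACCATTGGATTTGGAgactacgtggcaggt
Kcnk2 measured 43.3, 41.4, 42.4, 40.4 and 38.3 CPM after AC-T, against 29.8, 34.4 and 39.2 CPM after saline. AC-T 602 lay below the highest saline library, saline 301. The log2 fold change was 0.28 ± 0.07 (1.21-fold; edgeR adjusted p = 0.0303), the smallest change among the 14. Its call was lost without AC-T 501 (adjusted p = 0.0618), AC-T 502 (0.0713), AC-T 503 (0.0583), AC-T 600 (0.0549), saline 202 (0.0533), saline 203 (0.0534) or saline 300 (0.0644). Omission of series 5 (edgeR adjusted p = 0.316), 6 (0.0673) or 2 (0.118) also removed it. Kcnk1, the most abundant of these genes in CPM, averaged 95.04 ± 8.18 CPM after AC-T and 99.98 ± 8.74 CPM after saline (adjusted p = 0.582).

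**Figure D3:**
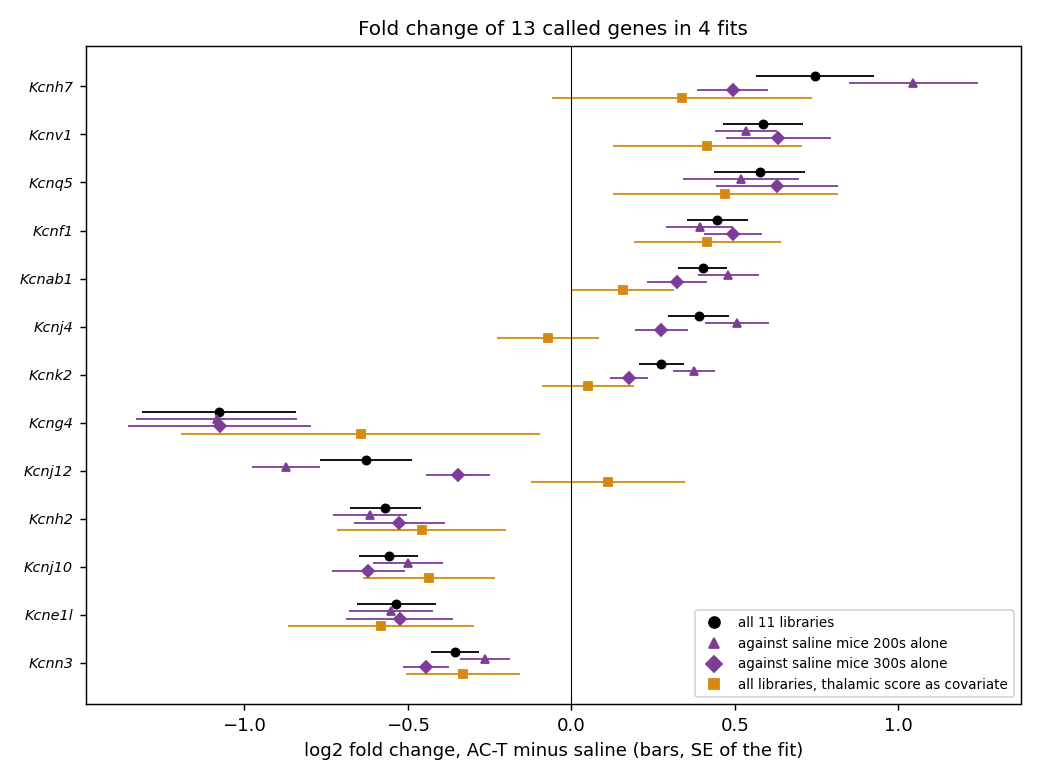
Log2 fold change (AC-T minus saline, horizontal axis, SE as bars) of 13 genes from all libraries, against saline series 2 alone, against saline series 3 alone, and with the thalamic score as covariate. Kcnj10 stays between -0.50 and -0.62 against either saline series, whereas Kcnj12 and Kcnj4 cross 0 with the covariate.

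Within a treatment, mice differ by series and not by drug. Between the saline series (3 minus 2), 0 of 76 members passed in edgeR, against 0.737% of all genes. At an unadjusted p of 0.05, however, 29 of 76 members passed (38.2%, against 19.9% of all genes), the same number as between the treatments. DESeq2 called 21 of 75 (28%, against 9.78% of all genes), and limma-voom called 2 of 76 (2.63%, against 1.12%). Between the AC-T series (6 minus 5), 2 members passed in edgeR, against 0.0999% of all genes, and 11 passed unadjusted (14.5%, against 13.5%). DESeq2 called 5 there (6.67%, against 3.89%), and limma-voom called 0, against 0% of all genes. The members called by edgeR were Kcnj2, given above, and Kcne4, listed at 0 in both mice of series 6, for which no fold is given.

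Kcnj13, a channel of the apical membrane of choroid plexus, and Kcne2, a subunit found in the same epithelium, varied widely between libraries of both groups. Kcnj13 was listed at 0, 293, 294, 1073 and 541 counts after AC-T and at 120, 155, 32, 1071, 0 and 667 counts after saline (mice 201, 202, 203, 300, 301 and 302). Kcne2 was listed at 0, 197, 265, 832 and 382 counts after AC-T and at 115, 97, 0, 895, 0 and 558 counts after saline. The same libraries were high for both genes, and the groups overlapped throughout. Summed markers of choroid plexus and ependyma took 93.2, 1341, 1382, 5470 and 2278 CPM after AC-T, against 1233, 553, 28.8, 5604, 120.4 and 2956 CPM after saline, with none of the 8 markers called and Folr1, Clic6, Ccdc153 and Tmem212 listed at 0 in some libraries. Neither gene passed between treatments (adjusted p = 0.911 for Kcnj13 and 0.948 for Kcne2). Kcnmb1, a smooth muscle BK subunit, was listed above 0 only in AC-T 600 (116 counts), AC-T 602 (82) and saline 300 (105).

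**Figure D4:**
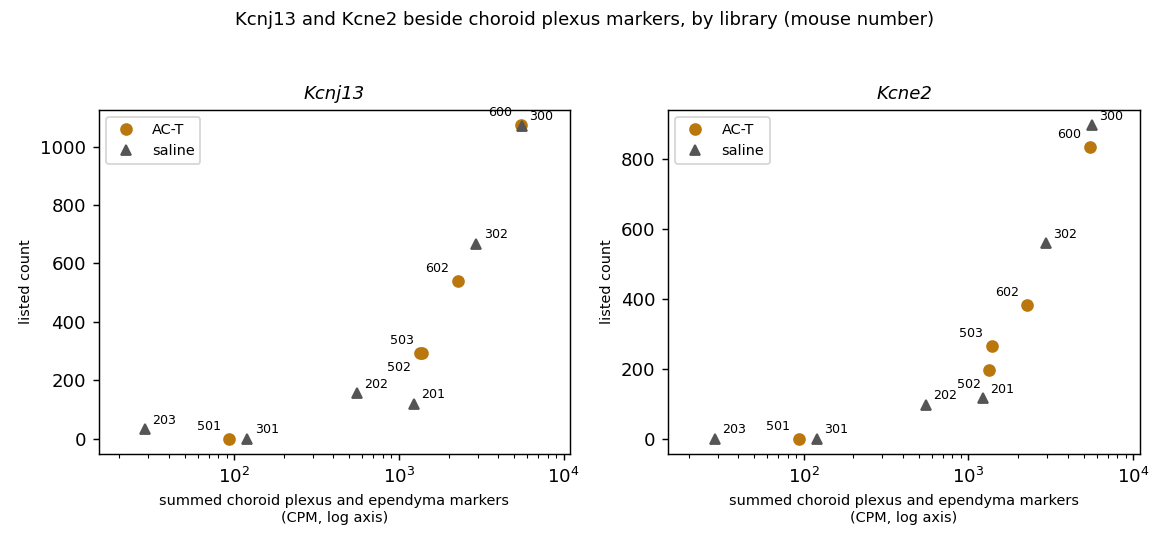
Listed counts of Kcnj13 and Kcne2 (vertical axes) against the summed level of choroid plexus and ependyma markers (CPM, log axis) in each library, numbered by mouse. AC-T 600 and saline 300 are the highest libraries of their groups on both axes, and AC-T 501 and saline 301 are at 0 for both genes.

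Genes whose products work with these channels were read from the same fit. Of 61 such genes 59 were in the table and tested; 6 rose (against 4.89% of all genes) and 3 fell (against 3.58%), with a median log2 fold change of 0.05. The share that fell was thus near that of all genes. Neither share, nor those of the lists below, was tested against all genes. Among 14 G protein and receptor genes of the Kir3 pathway, 3 rose: Gnao1 averaged 564 ± 14.4 CPM after AC-T and 484 ± 15.3 CPM after saline (edgeR adjusted p = 0.00741), Gnai1 181 ± 16.4 and 142 ± 9.42 CPM (0.0117), and Gnb5 48.9 ± 3.25 and 41.0 ± 2.55 CPM (0.0179). Of 20 transport genes, 3 fell and 1 rose. Atp1b2, a sodium pump subunit typical of astrocytes, fell to 517 ± 42.6 CPM after AC-T, against 666 ± 47.2 CPM after saline (adjusted p = 0.0105). Lrrc8a, a volume-regulated anion channel subunit, fell to 35.4 ± 2.45 CPM, against 41.8 ± 3.32 CPM (0.0406). Of 16 Kv partners, Dlg1, a scaffold that binds Kv1 channels, rose to 117 ± 7.27 CPM, against 96.6 ± 8.23 CPM (0.0235). Of 9 BK, SK and KATP partners, Lingo1, which binds BK channels, rose to 215 ± 14.9 CPM, against 178 ± 14.4 CPM (0.0298). The calls of Gnao1, Gnai1, Gnb5 and Atp1b2 held on omission of every single library, but not of every series. Gnao1 lost its call without series 5 (edgeR adjusted p = 0.0689) or 2 (0.0529), and Gnai1 without 5 (0.139) or 3 (0.0614). Gnb5 lost its call without series 5 (0.0728), 6 (0.0858) or 3 (0.103), and with library totals (0.0529). For Atp1b2 the call was lost without series 5 (0.0641), 6 (0.0550) or 2 (0.0637). Lrrc8a lost its call on omission of any library other than AC-T 501 and saline 302 (up to 0.0863, without AC-T 600). Dlg1 lost it without saline 202 (0.0502), saline 300 (0.0576), AC-T 502 (0.0555) or AC-T 602 (0.0524). Lingo1 lost it without AC-T 502 (0.0790), AC-T 503 (0.0580), AC-T 600 (0.0570), AC-T 602 (0.0621) or saline 203 (0.0588). Without series 5, Lrrc8a, Dlg1 and Lingo1 did not pass (edgeR adjusted p = 0.162, 0.209 and 0.166), nor without series 6 (0.123, 0.0672 and 0.0968). Lrrc8a and Lingo1 also failed without series 2 (0.218 and 0.112), and Dlg1 without series 3 (0.114).

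Promoter sequence was available for 54 members in the RefSeq table (GRCm38.p6, an older build than that of the counts), among them 6 that rose and 6 that fell. The 100 bases before the start of the genes with the largest change and the smallest p in each direction are printed on the gene's strand to show what lies there; capitals mark GC boxes (GGGCGG) and CCAAT boxes (CCAAT) on either strand.
Kcnh7, chr2:63184288-63184387, minus strand: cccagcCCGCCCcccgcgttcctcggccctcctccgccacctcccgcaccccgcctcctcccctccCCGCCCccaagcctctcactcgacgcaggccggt
Kcnab1, chr3:64949112-64949211, plus strand: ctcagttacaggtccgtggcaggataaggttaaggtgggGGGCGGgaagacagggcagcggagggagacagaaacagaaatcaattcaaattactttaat
Kcng4, chr8:119635681-119635780, minus strand: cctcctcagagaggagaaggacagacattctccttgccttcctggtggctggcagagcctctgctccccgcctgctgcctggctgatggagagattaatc
Kcnj10, chr1:172341110-172341209, plus strand: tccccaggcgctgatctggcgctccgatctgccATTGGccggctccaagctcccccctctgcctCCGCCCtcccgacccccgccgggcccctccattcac
Kcnab1 has 3 entries in that table and 1 is shown. Over 250 bases before the start, on both strands and with overlaps between motifs allowed, the GC box was found in 4 of 6 genes that rose, 3 of 6 that fell and 63.9% of 10578 tested genes. CCAAT was found in 3 of 6, 3 of 6 and 40.3%. The cAMP response element TGACGTCA was found in 0 of the 54 members and 3.07% of genes, and TATAAA in 3 of the 54 and 7.81%. These are matches of letters only.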

How the data were processed

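RNA of hippocampal punches was sequenced from stranded poly(A) libraries. Per the submitters' processing notes, Dragen 4.3.6 made the base calls, FastQC 0.11.9 checked the reads and Salmon 1.9.0 quantified them, with genome build GRCm39; the annotation release is not given in the sources used here. The authors deposited expected counts (estimated counts) per gene, which were rounded to whole numbers. Salmon divides reads shared by similar genes, so that reads of close paralogs may be split between them. Values listed as 0 were read as lying under a limit.

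All genes were fitted together with edgeR 4.0.16 (R 4.3.3): quasi-likelihood F test, 2-sided, TMM normalisation, a low-expression filter (filterByExpr, minimum 10 counts), and p adjusted after Benjamini-Hochberg over 15353 genes with a threshold of 0.05. Library totals of 23.4 to 32.1 M counts and a biological coefficient of variation of 0.174 set the precision. CPM are normalised counts with SD over mice (n = 5 AC-T, n = 6 saline); fold changes on the log2 scale set AC-T over saline, each with its fitted SE. The fits were tested on simulated data with known changes. A limit on the share of false calls was applied there to edgeR and limma-voom. DESeq2 was not held to that limit, as its share of false calls was higher at this number of mice.

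Named with values were all members past the threshold, members changed at least 1.5-fold with a mean of 1 CPM or more, and in each subfamily the member of highest CPM and that of smallest p; a few others are named besides, and some genes the rule takes are not reported here. Members and lists were chosen with earlier results of these data known. Alternatives were DESeq2 1.42.0, limma 3.58.1, other scaling, filters, thresholds, covariates, and omission of libraries and series. The design text gives 6 mice a group, of which 5 AC-T and 6 saline libraries entered. The labels do not tie libraries to cages or litters beyond the mouse number.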

Additional observations from a re-analysis of the deposited data

Results flagged for a closer look

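In the AC-T group 2 values stood apart from the other 4 libraries by Dixon's ratio. Kcnab1 was 115 CPM in AC-T 503, with the nearest library at 143 CPM, and Kcng4 was 5.67 CPM in AC-T 502, with the nearest at 10.3 CPM. Chance flags about 5% of groups, and 66 groups were examined. Both calls held without the library in question.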

How the results depend on the processing

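No paired analysis was possible because no mouse number occurs in both groups. Against 1301 genes in the reported fit, DESeq2 called 2559, series as a random effect 293, the thalamic covariate 1, omission of series 5, 6 and 2 317, 409 and 549, and thresholds of 0.01 and 0.10 gave 228 and 2295. Members higher (7) became 14 with DESeq2, 1 with series random, 0 with the covariate, 1, 0, 3 and 12 without series 5, 6, 2 and 3, and 0 and 13 at 0.01 and 0.10; members lower (7) became 11, 2 and 0, then 2, 2 and 2 without series 5, 6 and 2, and 1 at 0.01. Partners higher (6) became 10, 2 and 0, then 1 and 2 without series 5 and 6, and 1 at 0.01; partners lower (3) became 1 and 0 with series random and the covariate, 1, 0 and 0 without series 5, 6 and 2, and 0 at 0.01. Between the saline series, members called (0) were 1 with upper-quartile factors, 4 with library totals, 21 with DESeq2 and 2 with limma-voom; between the AC-T series (2) they were 5 with DESeq2 and 0 with limma-voom. The cause of these moves was not tested. The split of all genes into higher and lower, 751 and 550, was 593 and 663 with upper-quartile factors and 487 and 548 with library totals, while members stayed at 7 and 7 and at 7 and 6. Omission of single libraries gave 625 to 1229 genes, 3 to 9 members higher, 4 to 10 lower, 3 to 7 partners higher, 1 to 3 lower and a median member change of 0.03 to 0.07.

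With the thalamic covariate the direction turned for Kcnj12 (0.11), Kcnj4 (-0.071), Kcnh3 (-0.24), Kcne2 (-3.88), Kcnj9 (0.073), Kcnj11 (-0.24), Kcnj13 (-3.68), Kcnab2 (-0.043), Kcna2 (0.11), Kcnn2 (-0.068), Kcnt1 (0.49), Kcnt2 (-0.13) and Lrrc8a (0.089). It also turned for Kcne2 without AC-T 600 (-0.50), saline 203 (-0.09), saline 301 (-0.09), series 6 (-0.90) or series 2 (-0.59), for Kcnj13 without AC-T 600 (-0.37), series 6 (-0.85) or series 2 (-0.46), for Kcnj11 without series 6 (-0.033), for Kcnt1 without saline 202 (0.055), series 5 (0.080) or series 2 (0.20), and for Kcnk1 without series 5 (0.038) or series 3 (0.017). Over single omissions Kcne2 ran from -0.50 to 1.05, Kcnj13 from -0.37 to 1.103 and Kcnt1 from -0.18 to 0.055. Kcne2 and Kcnj13 had mean counts of 304 and 386 over the libraries but were listed at 0 in some of them. None of the turned values with the covariate passed (edgeR adjusted p from 0.851 for Kcnj13 to 0.974 for Kcnab2). Kcnab2 was at -0.043 ± 0.18 in that fit, Kcnh3 at -0.24 ± 0.25 and Kcne2 at -3.88 ± 2.71 (SE). The covariate had no overlap between the groups, so that these signs are not determined.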
